A study of Mus musculus with 2 samples.

Results

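T cell receptor signalling genes encode the receptor complex on the T cell surface, the kinases, adaptors and enzymes that carry its signal inwards, and the proteins that restrain it. A list of 43 such genes, chosen by name with earlier results of these data known, was read on 2 single-colour Agilent arrays of mouse CD4 T cells. Of these genes, 40 matched at least 1 probe by RefSeq accession, out of 18434 genes named in this way. Fyn, Nfkb1 and Cblb matched none and are not analysed here. All 40 matched genes were well above background on both arrays, as were 12272 (66.6%) of all named genes.

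The cells were splenic CD4 T cells of wild type C57BL/6 mice, sorted magnetically to a purity above 98%, stimulated for 2 days with immobilised antibody against the T cell receptor and antibody against CD28, and kept for 3 further days. The Th9+IFNgamma culture received IL-4 at 3 ng/ml, TGFbeta at 3 ng/ml and IFNgamma at 10 ng/ml. The Th9 culture received IL-4 at 10 ng/ml, TGFbeta at 3 ng/ml and an antibody against IFNgamma at 1 µg/ml. IFNgamma, the IL-4 dose and the antibody differed together and cannot be told apart, and both cultures had been stimulated through the receptor whose genes are described. Each condition had 1 array, the labels do not say how many mice lay behind it, and no value has a replicate, so differences are described by size and none was tested.

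The receptor itself has no enzyme activity. Its CD3 and zeta chains are phosphorylated by the kinase LCK, which CD4 brings to the complex, and the kinase ZAP-70 then binds them and phosphorylates the scaffolds LAT and SLP-76. From this platform 3 branches lead on: calcium entry, which switches on calcineurin and the NFAT factors; RAS activation through RASGRP1 and SOS1; and PKC-theta, which engages the partners BCL10 and MALT1 upstream of NF-kB. Phosphatases, ubiquitin ligases, diacylglycerol kinases and the receptors CD5 and CD6 limit the signal.

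Levels below are scaled signals, the background-subtracted intensities with the 75th percentile set equal on both arrays. They compare 1 gene between the arrays, never 1 gene with another. A gene was read by its brightest probe well above background on both arrays, and 25 of the 40 genes had 1 such probe. Differences are log2 values, Th9+IFNgamma minus Th9, and a difference of at least 2-fold is a size, not a test. The error that the scanner software attached to a gene's difference was 0.07 to 0.37 on the log2 scale. For repeatedly printed probes, the log2 difference between the arrays at single spots varied around the probe mean. Its SD was 0.14 over all such probes, 0.27 among the dimmest and 0.043 among the brightest. Neither covers variation between mice or cultures, and in RNA from a whole culture fewer cells that express a gene and less RNA per cell cannot be told apart.

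Of the 40 genes, 4 were higher in Th9+IFNgamma by 2-fold or more, beside 5.15% of all 12272 measured genes, and 2 were lower by 2-fold or more, beside 7.42% of all. The higher ones were Grap2, Prkcq, Cd247 and Ppp3ca, and the lower ones Malt1 and Sh2d1a. All 6 were classed as activators, which were 27 of the 40 genes, and the brightest probe of no negative regulator reached 2-fold. The classes were chosen with earlier results of these data known. The 6 genes are 15% of the 40, against 12.6% of all genes, and 13 genes (32.5%) were at least 1.5-fold apart, against 28.1% of all. Both shares are near those of the arrays as a whole with the processing above. With normexp background correction, 6 of 40 members were 2-fold apart, beside 441 genes higher and 585 lower of all 12272. With signals of at least 100 required, 6 of 39 members were, beside 429 genes higher and 465 lower of 9494. By any amount, 28 of 40 genes were higher in Th9+IFNgamma, beside 49.6% of all genes. The median difference was 0.17 for the 40 genes and -0.01 for all genes. Relative to the median of all genes, the number of members above it ran from 22 to 30 over the alternative settings, with 22 of 39 when signals of at least 100 were required.

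**Figure D1:**
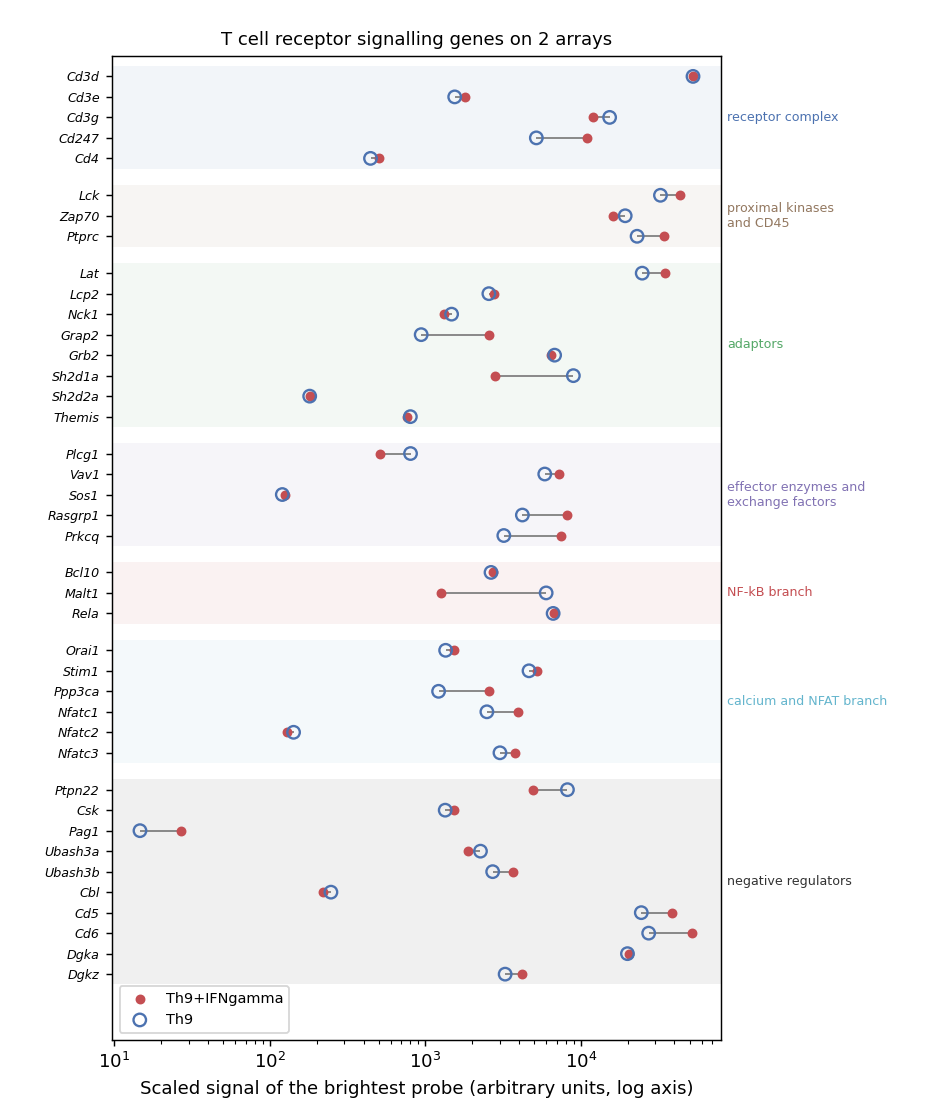
Scaled signal of the brightest probe (arbitrary units, log axis) for 40 T cell receptor signalling genes in rows by role, with 1 filled point for the Th9+IFNgamma array and 1 open point for the Th9 array. Most pairs lie close together, while Malt1 (1260 and 5982) and Sh2d1a (2818 and 8952) stand lower and Grap2 (2571 and 940) higher in Th9+IFNgamma.

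The RefSeq promoter windows of the higher members that had a single window, Grap2, Prkcq and Cd247, are printed with that of Rasgrp1, which lay just under 2-fold, because they bear on a question the cultures raise: whether these windows hold the letters of interferon-responsive sites. Each is the 250 bases before the RefSeq start, 5′ to 3′ on the gene's strand, in the GRCm38.p6 build: Grap2 at chr15:80623233-80623482 (plus strand), Prkcq at chr2:11172132-11172381 (plus strand), Cd247 at chr1:165788431-165788680 (plus strand) and Rasgrp1 at chr2:117342878-117343127 (minus strand). Capitals mark matches to any of 6 motifs.
Grap2: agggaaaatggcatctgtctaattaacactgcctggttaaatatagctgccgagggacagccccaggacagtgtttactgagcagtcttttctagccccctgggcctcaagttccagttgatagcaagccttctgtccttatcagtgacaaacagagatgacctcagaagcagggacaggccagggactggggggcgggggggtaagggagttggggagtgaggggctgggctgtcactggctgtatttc
Prkcq: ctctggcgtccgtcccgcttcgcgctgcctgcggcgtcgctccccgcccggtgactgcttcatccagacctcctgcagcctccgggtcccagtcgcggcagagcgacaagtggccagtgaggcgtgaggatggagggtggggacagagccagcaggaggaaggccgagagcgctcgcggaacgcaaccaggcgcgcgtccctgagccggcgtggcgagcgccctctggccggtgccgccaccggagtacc
Cd247: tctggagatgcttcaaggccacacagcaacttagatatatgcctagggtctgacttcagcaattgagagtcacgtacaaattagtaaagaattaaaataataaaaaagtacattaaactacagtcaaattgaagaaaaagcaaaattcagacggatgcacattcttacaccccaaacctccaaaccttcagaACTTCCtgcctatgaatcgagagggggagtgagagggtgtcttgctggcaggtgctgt
Rasgrp1: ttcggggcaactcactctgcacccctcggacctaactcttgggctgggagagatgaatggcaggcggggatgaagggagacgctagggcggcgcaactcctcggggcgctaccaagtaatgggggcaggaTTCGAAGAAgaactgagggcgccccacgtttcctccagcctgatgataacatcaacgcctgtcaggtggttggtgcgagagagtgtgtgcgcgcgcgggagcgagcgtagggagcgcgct

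The 6 motifs were searched on both strands, and the 2 matches found in the printed windows lie in different genes. TTCNNNGAA, the gamma-activated site of interferon signalling, stood in the Rasgrp1 window as TTCGAAGAA and in none of the other 3. GAAANNGAAA, the core of the interferon-stimulated response element, stood in none of the 4. The ETS core GGAAGT was found in the Cd247 window on the reverse strand, printed as ACTTCC, 58 to 53 bases before the start. The RUNX core TGTGGT, the GATA core AGATAA and the T-box core GGTGTG were in none of the 4. These are matches of letters in 1 window, not sites shown to be bound.

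Windows existed for 32 of the 40 genes, some with several. The gamma-activated letters were in 5 of the 32 (Cd3d, Orai1, Ptpn22, Rasgrp1 and Ubash3b), beside 7.27% of 9866 measured genes with a window and 7.02% of all 32851 windows. The differences of those 5 genes were 0.00, 0.19, -0.74, 0.96 and 0.44, and they share no direction. The interferon-stimulated core was in 0 of the 32, beside 3.14% of the measured genes and 2.98% of all windows. The ETS core was in 14 of the 32, among them Cd3d, Cd3e, Lck, Zap70, Cd5 and Cd247, beside 26.6% of the measured genes and 19.7% of all windows. RUNX letters were in 4 of the 32, beside 13.3% of the measured genes and 14.0% of all windows. GATA letters were in 4, beside 7.73% and 9.99%, and T-box letters in 9, beside 18.3% and 16.3%.

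Among the receptor chains, Cd247 stood apart from the CD3 genes. Cd247, which encodes the zeta chain with its repeated tyrosine activation motifs, had 11035 in Th9+IFNgamma and 5174 in Th9, 2.13-fold higher. Its 3 probes did not give 1 size: the next brightest had 2797 against 1413 (a log2 difference of 0.99), and the dimmest 83.1 against 72.7 (0.19), so that Cd247 passed 2-fold by its brightest probe alone.

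Cd3d, which encodes the delta chain, read 52709.5 in Th9+IFNgamma and 52667.1 in Th9, a log2 difference of 0.00. Cd3e, the epsilon chain gene, read 1789 against 1544, 1.16-fold higher. Cd3g, the gamma chain gene, read 11984 against 15316, 1.28-fold lower. These 3 genes follow each other on chromosome 9 with 0 other protein-coding genes between them in the RefSeq table, and their differences had no common direction. Cd4, the coreceptor gene, was printed as repeated spots and averaged 502 ± 11.6 (SD, n = 8 spots) in Th9+IFNgamma and 444 ± 10.9 (SD, n = 10 spots) in Th9. The spot ranges did not overlap, at 484 to 513 and 420 to 459, although the difference was only 1.13-fold. Spots of 1 array share 1 RNA and are not replicates of a culture.

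The kinases that start the cascade stayed within 1.5-fold. Lck, the SRC-family kinase bound to CD4, read 43354 in Th9+IFNgamma and 32520 in Th9, 1.33-fold higher. Zap70, the kinase that docks on phosphorylated zeta chains, read 15996 against 19291, 1.21-fold lower, with a log2 difference of -0.27 that became -0.08 with normexp background correction. Ptprc, which encodes the phosphatase CD45 that keeps LCK ready to act and can also restrain it, had 3 probes that gave 0.57 to 0.66. Its brightest averaged 34160 ± 539 (SD, n = 9 spots) in Th9+IFNgamma and 23009 ± 412 (SD, n = 10 spots) in Th9, with no overlap of spots.

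The adaptors, which have no enzyme activity and hold the signalling platform together, included the gene with the highest difference of the 40, 1 of the 2 that were lower by 2-fold or more, and several near even. Grap2, which encodes GADS, the bridge between LAT and SLP-76, read 2571 in Th9+IFNgamma and 940 in Th9, 2.73-fold higher. Its second probe, at 43.8 against 21.1, gave a log2 difference of 1.05, and 0.21 with normexp, where the brightest probe kept 1.34. Both proteins that GADS joins were closer to even. Lat, the membrane scaffold gene, read 34750 against 24818, 1.40-fold higher. Lcp2, the gene of SLP-76, read 2779 against 2561, 1.08-fold higher. Grb2, a relative of GADS that links LAT to SOS1, read 6448 against 6781, 1.05-fold lower, so that of these 2 related adaptors 1 was above 2-fold and the other near even.

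Sh2d1a, which encodes SAP, the adaptor of SLAM-family receptors that recruits the kinase FYN, went the other way at 2818 in Th9+IFNgamma and 8952 in Th9, 3.18-fold lower by its 1 probe. Only 409 of 12272 genes were at least as low. Nck1, an adaptor to the actin cytoskeleton, gave -0.17 and -0.27 by its probes (1311 against 1475 for the brighter). Themis, a regulator of receptor signals with reported effects in both directions, gave -0.08 and -0.34 (757 against 801 for the brighter). Sh2d2a, the gene of the LCK-binding adaptor TSAd, read 181 against 180, a log2 difference of 0.01.

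**Figure D2:**
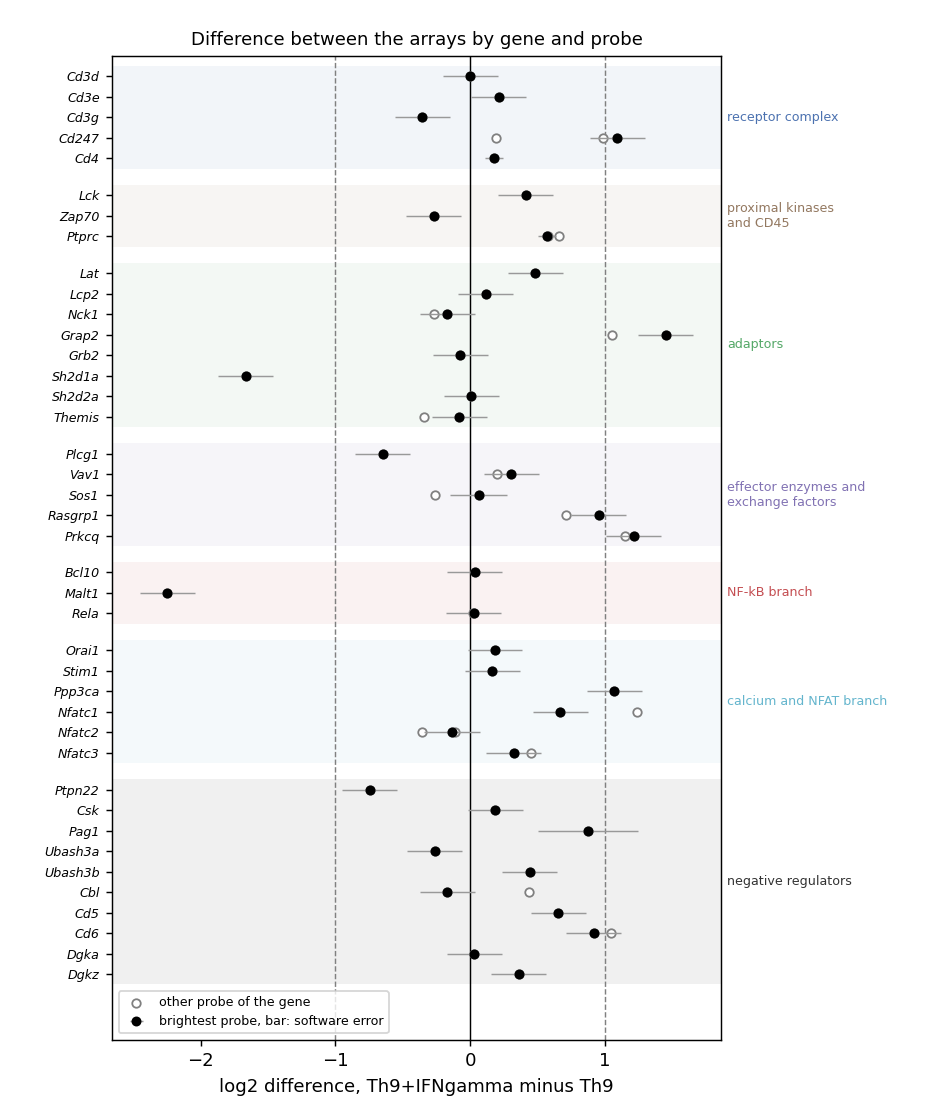
Difference in log2 signal (Th9+IFNgamma minus Th9, horizontal axis) of 40 T cell receptor signalling genes by role. Filled points are the brightest probe with the error given by the scanner software, open points the other detected probes, and dashed lines mark 2-fold. Malt1 (-2.25) and Sh2d1a (-1.67) lie left of the lines, Grap2 (1.45), Prkcq (1.22), Cd247 (1.09) and Ppp3ca (1.07) right of them, and the probes of Cd247 spread from 0.19 to 1.09.

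Among the effector enzymes and exchange factors, the diacylglycerol-responsive pair was higher and the diacylglycerol-producing phospholipase lower, with only Prkcq past 2-fold. Prkcq, which encodes the diacylglycerol-activated kinase PKC-theta, read 7421 in Th9+IFNgamma and 3196 in Th9, 2.32-fold higher, and its second probe gave 2266 against 1022 (a log2 difference of 1.15). Prkcq and Grap2 were the members of which every detected probe passed 2-fold, among those with several probes. Rasgrp1, the diacylglycerol-activated exchange factor for RAS, read 8159 against 4207, 1.94-fold higher, with 0.71 by its dimmer probe. It passed 2-fold only when the arrays were scaled to their medians (1.07).

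Plcg1, which encodes phospholipase C gamma 1, the source of diacylglycerol and of the calcium-releasing messenger IP3, read 512 in Th9+IFNgamma and 803 in Th9, 1.57-fold lower by 1 probe. Vav1, an exchange factor for small GTPases that act on the cytoskeleton, was 1.24-fold higher (7247 against 5861), with 0.31 and 0.20 by its probes. Sos1, the other exchange factor for RAS, was dim, and its probes differed in sign at 126 against 120 (0.06) and 27.4 against 32.9 (-0.26).

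The NF-kB branch held the largest difference among the 40 genes. Malt1, which encodes the paracaspase that acts together with BCL10, read 1260 in Th9+IFNgamma and 5982 in Th9, 4.75-fold lower. The log2 difference of -2.25 lay between -2.30 and -2.13 under all alternative settings, and 204 of 12272 genes were at least as low. The value rests on 1 probe, so the settings on dim probes and on the summary of probes could not change it. Its partner Bcl10 read 2707 against 2644 (0.03). Rela, the p65 subunit of NF-kB, read 6767 against 6635 (0.03), and a second probe averaged 634 ± 15.8 (SD, n = 10 spots) against 624 ± 21.7 (SD, n = 10 spots), with overlapping spots.

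In the calcium branch, the store sensor and channel were near even while 1 of the calcineurin catalytic subunit genes was higher by 2-fold. Stim1, the sensor of the calcium store, read 5202 in Th9+IFNgamma and 4642 in Th9 (0.16), and Orai1, the pore of the calcium channel it opens, 1535 against 1350 (0.19). Ppp3ca, which encodes a catalytic subunit of the phosphatase calcineurin, read 2556 against 1216, 2.10-fold higher by its 1 probe. The other catalytic subunit genes did not share this size: Ppp3cb read 3402 against 2856 (0.25) and Ppp3cc 6395 against 11478 (-0.84). Ppp3cb and Ppp3cc stand in the further pathway list and are named for comparison.

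Nfatc1, an NFAT factor that calcineurin brings into the nucleus, read 3954 in Th9+IFNgamma and 2487 in Th9 by its brighter probe, 1.59-fold higher. Its other probe, assigned to another RefSeq transcript of the gene, read 601 against 254 and gave 1.24, beyond 2-fold. Nfatc3 was 1.25-fold higher (3776 against 3018). Nfatc2 was dim on both arrays at 129 against 142, and its 3 probes gave -0.11 to -0.36.

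By their brightest probes, the negative regulators stayed within 2-fold on both sides, although Cd6 passed it with median scaling (1.03). Among the 10 measured, 7 were higher and 3 lower in Th9+IFNgamma by any amount, beside 49.6% of all genes higher, with a median of 0.28 and a range from -0.74 to 0.92. Both surface receptors were among the higher genes. Cd6, a receptor of the scavenger family that binds SLP-76, has reported effects of both signs. It read 51568 against 27317, 1.89-fold higher, and 1031 against 499 by its second probe (1.05). Cd5, a related inhibitory receptor, read 38577 against 24486, 1.58-fold higher. The genes are direct neighbours on chromosome 19 in the RefSeq table, with 0 protein-coding genes between them.

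Among the phosphatases and ligases the differences were mixed. Ptpn22, the tyrosine phosphatase that acts on LCK and ZAP-70, read 4895 in Th9+IFNgamma and 8201 in Th9, 1.68-fold lower, the lowest difference of the group. Its partner Csk, the kinase that places the inhibitory phosphate on LCK, read 1529 against 1341, 1.14-fold higher. Ubash3a and Ubash3b, which encode related proteins of a phosphatase family that limits ZAP-70, went apart at 1886 against 2262 (-0.26) and 3688 against 2710 (0.44). Cbl, a ubiquitin ligase for activated kinases, had probes of opposite sign, at 219 against 247 (-0.17) and 111 against 82.0 (0.43). Pag1, the membrane anchor of CSK, was close to background at 26.7 against 14.6, where the difference of 0.87 became 0.10 with normexp. Dgka and Dgkz, the diacylglycerol kinases that remove the second messenger, read 20391 against 19945 (0.03) and 4190 against 3259 (0.36).

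The 27 measured activators had a median of 0.16 and ran from -2.25 to 1.45, and the 10 negative regulators had a median of 0.28, beside -0.01 for all genes. Ptprc, Themis and Sh2d2a have roles of both kinds and stood in neither class. Cd6, with reported effects of both signs, was kept among the negative regulators, where it had the highest difference (0.92). Without Cd6, the middle value of the other negative regulators was that of Csk (0.19). The activator median minus the regulator median was -0.11, and it was 0.027 with normexp. With signals of at least 100 required, which left out Pag1, the regulator median was 0.19 (n = 9 genes) and the difference of the medians -0.024. With 1 array a condition, no test of a difference between the classes was possible. By 2-fold, 4 activators were higher and 2 lower, against 0 of the 10 negative regulators on either side, beside 5.15% of all genes higher and 7.42% lower. In the further list of pathway genes described next, 8 of 49 activators and 7 of 29 negative regulators were 2-fold apart, so that the 0 among the listed negative regulators was not shared by the further ones.

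**Figure D3:**
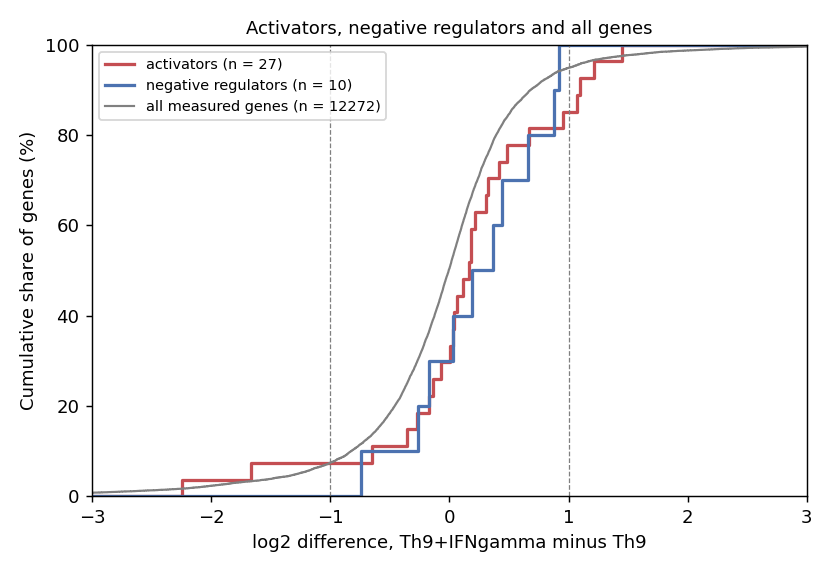
Cumulative share of genes (vertical axis, percent) by log2 difference (Th9+IFNgamma minus Th9, horizontal axis, shown from -3 to 3) for 27 activators, 10 negative regulators and all 12272 measured genes. Both classes run to the right of all genes around 0. Of these classes only the activators cross the dashed 2-fold lines, on both sides, as the curve of all genes also does.

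A further list of 101 pathway genes extends the picture. Of these, 99 matched a probe and 93 were well above background on both arrays, and 21 of those passed 2-fold, 11 higher and 10 lower in Th9+IFNgamma, beside 5.15% higher and 7.42% lower of all genes (12.6% in either direction). As shares of the 93 these are 11.8% and 10.8%, and the median difference was 0.02, against -0.01 for all genes. The other 6 matched genes (Shb, Rel, Itch, Egr3, Nr4a3 and Il2) were well above background on neither array. Among 49 measured further activators, 5 (10.2%) were higher and 3 (6.12%) lower by 2-fold, the lower share being below that of all genes.

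Among kinases of the TEC family, Txk and Tec went apart. Txk read 3930 in Th9+IFNgamma and 1232 in Th9, 3.19-fold higher. Tec read 596 against 1378, 2.31-fold lower, with both probes beyond 2-fold. The other higher activators were Tespa1, a regulator of early receptor signals (2119 against 706), Trat1, a transmembrane adaptor of the receptor complex (376 against 135), Wipf1, a partner of the actin regulator WASP (9847 against 4196, with 0.52 by its other probe), and Vav3 (358 against 172, which did not reach 2-fold with normexp, at 0.75). Itpr1, the IP3-gated calcium channel of the store, read 2804 against 7506, 2.68-fold lower, and Pik3r1, the regulatory subunit of PI3 kinase, 1372 against 3436, 2.50-fold lower, with 1 of its 4 probes at -0.81.

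Of 29 measured further negative regulators, 4 (13.8%) passed 2-fold on the higher side and 3 (10.3%) on the lower, beside 5.15% and 7.42% of all genes. Lax1, a membrane adaptor related to LAT that dampens receptor signals, read 777 in Th9+IFNgamma and 250 in Th9. Sla2, an adaptor that promotes removal of the receptor, read 6130 against 2119, and Ptpn6, the phosphatase SHP-1, 16712 against 7756. The Ptpn6 difference of 1.11 was under 2-fold by its other probe (0.83) and by the mean of both (0.97). The inhibitors of NF-kB split, with Nfkbie 2.51-fold higher (2682 against 1067) and Nfkbia, itself a target of NF-kB, 2.16-fold lower (18861 against 40803). The ubiquitin ligase genes past 2-fold were lower: Rnf128, the gene of GRAIL, at 28.5 against 244 and Nedd4, which has also been reported to promote T cell activation by targeting CBL-B, at 1066 against 2267. The Rnf128 difference of -3.10 was -1.86 with normexp. With median scaling, Nedd4 (-0.97) and Nfkbia (-0.999) did not reach 2-fold.

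Genes that receptor stimulation is known to induce early pointed both ways. Of 15 measured, 2 (13.3%) passed 2-fold on the higher side and 4 (26.7%) on the lower, beside 5.15% and 7.42% of all genes, and the median difference was -0.40, beside -0.01 for all genes. Cd69, an early activation antigen, read 984 in Th9+IFNgamma and 195 in Th9, 5.06-fold higher, and Jun, an AP-1 subunit, 2042 against 426, 4.79-fold higher. Egr2, a zinc finger factor induced through NFAT, read 104 against 851, 8.15-fold lower (a log2 difference of -3.03, and -2.41 with normexp), and Nr4a2, an orphan nuclear receptor, 83.5 against 581, 6.96-fold lower. Junb was 2.11-fold lower (39494 against 83296) and did not reach 2-fold with median scaling (-0.96), with normexp (-0.99) or by its second probe (-0.996). Fos, at 24.8 against 59.4, was close to background and gave -0.60 with normexp.

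**Figure D4:**
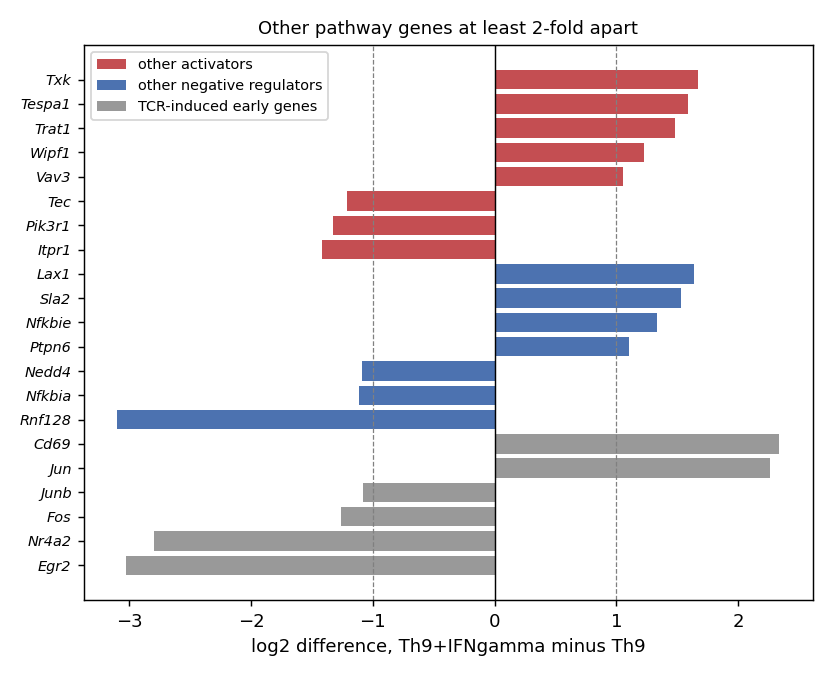
Bars give the log2 difference (Th9+IFNgamma minus Th9) of the 21 further pathway genes that were at least 2-fold apart, by class, with dashed lines at 2-fold. Each class holds genes on both sides, with Rnf128 (-3.10), Egr2 (-3.03) and Nr4a2 (-2.80) lowest and Cd69 (2.34) and Jun (2.26) highest.

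The label of CD4 T cells was set against marker genes. Cd4, Cd3d, Cd3e, Cd3g and all 10 of 10 further T cell markers were well above background on both arrays, while Blk, Pax5, Lyz2, Itgam, Itgax and Ncr1 were so on neither. Among the further T cell markers, Cd40lg was dim, at 19.4 in Th9+IFNgamma and 14.3 in Th9. Their log2 differences ran from -1.72 (Icos) to 1.48 (Trat1). Sums of scaled signals over the markers of 1 cell type are given only to set the arrays side by side. The 7 B cell markers summed to 941 in Th9+IFNgamma and 1467 in Th9, and all 5 that were above background on an array read lower in Th9+IFNgamma, among them Cd79b at 844 against 1187. Cd22 was above background in Th9 alone, at 8.41 against 148, at least 13.3-fold lower, with a log2 difference of -1.71 with normexp. The 6 myeloid markers with a probe summed to 102 against 265, and nearly all of that gap was Adgre1, at 25.8 against 186, 7.19-fold lower, with -2.85 becoming -1.45 with normexp. Dendritic cell markers (4) summed to 151 against 169 and NK cell markers (5) to 395 against 491. Cd8a read 1338 against 1074. Several markers of other cells were thus lower in Th9+IFNgamma, while others were higher or near even. Of the NK cell markers detected on both arrays, Klrk1 had a log2 difference of 0.49, while Klrb1c (-0.94), Tyrobp (-0.62) and Fcer1g (-0.54) were lower. The myeloid marker Cd14 had 0.31 (0.03 with normexp). Hbb-bt, an erythroid marker, had 0.54, but its probes differed in sign (-0.47 to 0.54). Csf1r and Xcr1 had -0.01 each. Ptprc, Csk, Grb2 and Rela are active in most blood cells, and the part of other cells in these and the other differences was not tested.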

How the data were processed

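Per the file headers, the authors read both arrays with Agilent Feature Extraction 10.7.3.1 (10.7 in the submitters' processing notes), on 1 slide in 1 scan, and the intensity values they deposited are background-subtracted and detrended within each array, with no scaling between arrays. The authors' deposited log2 table equals the processed signals less a constant per array (column medians -4.05 for Th9+IFNgamma and -3.93 for Th9, SD of the offset 2.5e-07 and 2.2e-07) and served as an alternative.

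Control spots, 99 and 71 outlier spots (Th9+IFNgamma and Th9) and 3 probes with outlier spots only were left out. Log2 signals were averaged over a probe's spots, and the array's 75th percentile (632 and 567) was subtracted. No spot was saturated, and 60.6% and 59.9% of probes were well above background. Of 41174 probes, 27050 matched 1 gene by RefSeq accession (GRCm38.p6 table) and 0 matched several. The array headers name another build, so the only coordinates given are those of RefSeq promoter windows, in the table's own build.

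Each condition has a single array, so nothing was tested, and the number of arrays limits the precision. The members, classes, pathway list and markers were chosen with earlier results of these data known. The text names all 40 measured members and every further pathway gene at least 2-fold apart, and Ppp3cb and Ppp3cc were added after their values were seen. Some items are not reported here. Alternatives covered scaling, quantile and loess normalization (span 0.3), normexp (offset 50, on median spot signals, since the files hold no mean signals), the filter on dim probes and the summary of probes. The gene summary was tested on simulated data. Python 3.11.15, R 4.3.3 and limma 3.58.1 were used.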

Additional observations from a re-analysis of the deposited data

How the results depend on the processing

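Under 10 alternative settings, 5 to 8 members were at least 2-fold apart, against 6 in the main setting. Grap2, Prkcq, Ppp3ca, Malt1 and Sh2d1a kept direction and size in each of the 10. Ppp3ca, Malt1 and Sh2d1a had 1 probe each, so the settings on dim probes and on the summary of probes could not change their values. The other scalings and the deposited log2 table shifted these genes by a constant only. Cd247 did not reach 2-fold with the mean over its probes (0.76) and with its probe of smallest difference (0.19), while Rasgrp1 (1.07) and Cd6 (1.03) passed it with median scaling. That scaling moved the median of all genes to 0.11, a shift of over 0.1, and gave 772 higher and 776 lower genes in all, against 632 and 910. Relative to the median of all genes, the member median lay 0.13 to 0.29 higher over the settings, and 22 to 30 members were above it. The activator median minus the regulator median was -0.11 and became 0.027 with normexp and -0.024 with signals of at least 100 required. It was -0.13 with Ptprc, Themis and Sh2d2a counted as activators and -0.02 with them counted as negative regulators. No setting moved Cd6 out of the negative regulators. The count of further pathway genes 2-fold apart was 17 to 23, against 21.

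No paired analysis was possible because each condition has 1 array. Dim genes such as Pag1, Sos1, Cbl and Fos are limited by their signal over background.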
